A study of Mus musculus with 12 samples.

Results

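The Krüppel-like factor genes described here were the 10 members *Klf2*, *Klf3*, *Klf4*, *Klf6*, *Klf9*, *Klf10*, *Klf11*, *Klf12*, *Klf13* and *Klf15*, picked by symbol from the 54838 gene identifiers of a table of raw read counts from mouse liver. A further 7 *Klf* genes of the table were not among them, and their values are given at the end. All 10 had reads in each of the 12 libraries, and all 10 were tested in each comparison. The livers came from C57BL/6J mice in 4 groups of 3, which the study's methods put at 8 to 14 weeks of age. For 7 days the mice drank either plain water or water holding 25 mM ZnSO4. They then received an intraperitoneal injection of PBS (water-PBS and zinc-PBS groups) or of 200 µg dexamethasone (water-Dex and zinc-Dex groups), and the liver was taken 2 h later. Dexamethasone (Dex) is a synthetic agonist of the glucocorticoid receptor. The mice carried no engineered allele and all were injected, so water-PBS is a vehicle control. The methods state that C57BL/6J mice were bought as females.

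Krüppel-like factors are transcription factors that bind GC-rich DNA and CACCC boxes through zinc fingers at their carboxy-terminal end, and the rest of the protein decides whether a bound gene is activated or repressed. KLF3 and KLF12 recruit the corepressor CtBP, KLF9, KLF10, KLF11 and KLF13 recruit the corepressor Sin3A, and KLF2, KLF4 and KLF6 act largely as activators. In liver, KLF15 is known for the control of amino acid breakdown and gluconeogenesis, and *Klf9* and *Klf15* are known as glucocorticoid receptor target genes. KLF2 and KLF4 are best known from endothelium, where blood flow induces them.

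In mice on plain water given Dex, *Klf2*, *Klf3*, *Klf4*, *Klf13* and *Klf15* rose about 2-fold (2.02- to 2.26-fold) and *Klf10* fell to 0.306 of its vehicle level. In mice on zinc water *Klf2*, *Klf3*, *Klf4* and *Klf15* rose and *Klf10* fell, and *Klf13* was not called, though the difference between its 2 Dex effects did not pass (interaction, DESeq2 adjusted p 0.228). With zinc alone *Klf13* was higher by DESeq2 (adjusted p 0.000543), within the fold change limit, and did not pass in edgeR (0.0902). No member was called with zinc, where few genes of any kind were. Relative to length, *Klf15* and *Klf9* were the most abundant members in every group.

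The promoters of 9 of the 10 members were found by symbol in RefSeq (GRCm38.p6), each as a window of 300 bases from 250 before to 50 after the transcript start. *Klf10* had no entry. The *Klf12* window (chr14:100149747-100150046, minus strand) lies inside the gene and not at its annotated start (100284679). The sequences of *Klf4*, *Klf13* and *Klf15* are shown up to 30 bases after the start, because *Klf4* had the largest log2 rise with Dex on plain water, *Klf13* was the member higher with zinc and *Klf15* was the most abundant member. Capitals mark the GC box GGGCGG in *Klf4*, the metal response core (TGCACNC or TGCGCNC) in *Klf13* and the E-box CACGTG in *Klf15*, each on either strand.

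Klf4, chr4:55532446-55532725, minus strand: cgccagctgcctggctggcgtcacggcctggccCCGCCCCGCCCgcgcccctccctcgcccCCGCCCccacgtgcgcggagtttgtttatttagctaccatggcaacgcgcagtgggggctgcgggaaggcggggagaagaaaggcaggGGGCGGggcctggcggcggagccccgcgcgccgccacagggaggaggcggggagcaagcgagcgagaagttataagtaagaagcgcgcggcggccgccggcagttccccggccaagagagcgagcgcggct

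Klf13, chr7:63938886-63939165, minus strand: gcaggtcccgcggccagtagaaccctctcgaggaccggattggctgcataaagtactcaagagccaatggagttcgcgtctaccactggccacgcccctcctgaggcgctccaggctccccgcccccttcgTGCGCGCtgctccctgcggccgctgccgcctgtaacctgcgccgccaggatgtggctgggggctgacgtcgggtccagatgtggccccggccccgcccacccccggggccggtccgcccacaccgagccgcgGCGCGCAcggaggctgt

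Klf15, chr6:90462326-90462605, plus strand: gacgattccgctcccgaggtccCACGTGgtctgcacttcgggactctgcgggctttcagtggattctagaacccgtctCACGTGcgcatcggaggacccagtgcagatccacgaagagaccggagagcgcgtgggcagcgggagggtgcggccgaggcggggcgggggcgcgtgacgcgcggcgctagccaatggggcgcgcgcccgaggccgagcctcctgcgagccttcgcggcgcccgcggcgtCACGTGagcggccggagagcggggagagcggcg

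*Klf15* held 3 E-boxes, which began at -228, -172 and -3 from the start, while 3 or more were present in 0.0883% of 32851 promoters and at least 1 in 7.15%. The one at -172 overlapped a metal response core, and the one at -3 overlapped a cyclic AMP response core (TGACG). *Klf13* held 2 metal response cores, beginning at -119 and 14, a number reached by 7.11% of promoters, and 25.7% held at least 1. Single metal response cores lay in *Klf2*, *Klf11* and *Klf15*. *Klf4* held 4 GC boxes, of which the first pair shared a base, and 5.49% of promoters held 4 or more. Most GC boxes (6) and CACCC boxes (5) were counted in *Klf3*, and 1.35% of promoters had 6 or more GC boxes. Neither the full glucocorticoid response element (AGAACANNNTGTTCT) nor its core ACANNNTGT was found in the 9 windows, and these letters were in 0.00913% and 6.85% of all promoters. At least 1 CACCC box was in 57.5%, a GC box in 35.7% and a cyclic AMP response core in 20.8% of all promoters. These matches describe letters within a short window and say nothing of sites elsewhere in a locus.

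Levels below are normalized read counts, which are reads divided by the DESeq2 size factor of the library, and are given for mice 1, 2 and 3 of a group before the mean ± SD (n = 3 mice). A gene counted as called if its log2 fold change lay beyond 0.8 in either direction with a p under 0.05 after Benjamini-Hochberg adjustment over all genes. Total counts ranged from 9091152 to 12303527 per library. The tissue and both treatments were visible in the libraries. The 6 hepatocyte markers summed to at least 1168278 normalized counts in every mouse, whereas 4 of 6 pancreas markers were at 0 in every group. Dex raised the 5 listed glucocorticoid receptor targets on plain water and 4 of 5 on zinc water, where *Zbtb16* did not pass (log2 1.23, DESeq2 adjusted p 0.149). Zinc raised *Mt1* (log2 3.87) and *Mt2* (5.38) in PBS mice and lowered *Slc39a4* from 666 to 236 normalized counts, and *Mt1* and *Mt2* also rose with Dex on plain water. In bulk liver RNA, fewer cells of a type and less RNA per cell cannot be told apart.

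The effect of Dex on plain water was assessed first. Of the 10 members, 5 were called higher, against a background of 4.89% of the 14221 genes tested, and 1 was called lower, against 4.79%. Without the fold change limit 7 members passed the adjusted p, against 21.6% of genes. The water-Dex and water-PBS mice did not overlap for 9 members, against 39% of genes. The median log2 fold change of the 10 members was 0.78, beside -0.01 over all genes tested. The members were chosen with earlier results of these data known. These shares therefore describe the 10 genes and do not test the family. Among the 7 *Klf* genes left out, 0 were called higher and 1 lower.

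**Figure D1:**
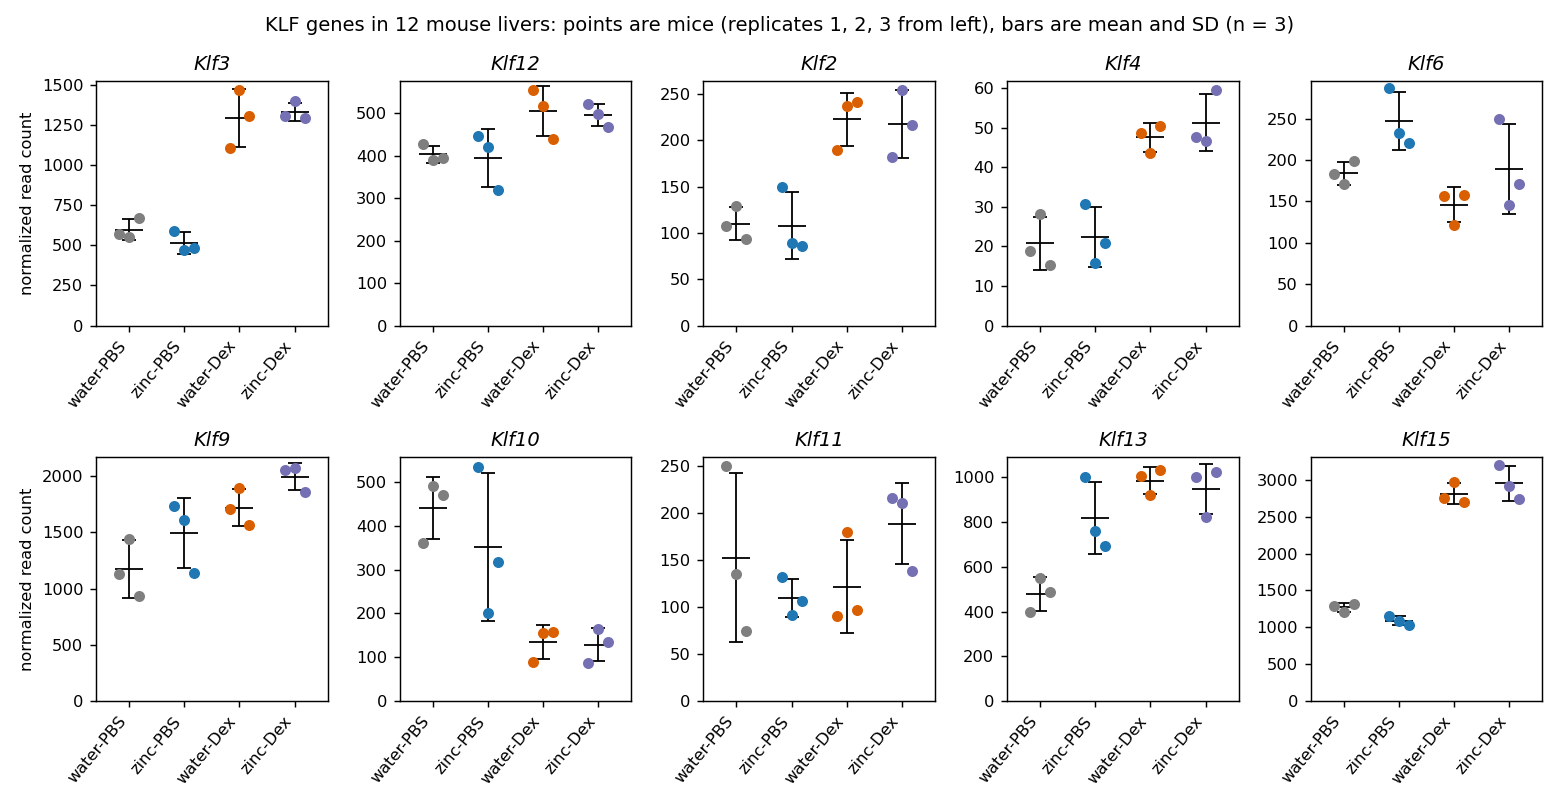
Normalized read counts (vertical axes, from 0) of the 10 Krüppel-like factor genes, with 1 point per mouse in the 4 groups on the horizontal axes and bars for mean and SD (n = 3). *Klf3*, *Klf2*, *Klf4* and *Klf15* are higher and *Klf10* is lower in all 6 Dex mice than in all 6 PBS mice, while *Klf13* is also higher in the zinc-PBS mice than in the water-PBS mice.

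*Klf3* (ENSMUSG00000029178, chromosome 5, 64803388 to 64832901), one of the CtBP-dependent repressors, had 568, 553 and 672 normalized counts in the water-PBS mice (598 ± 64.7). In the water-Dex mice it had 1107, 1466 and 1304 (1292 ± 179.8). The lowest Dex mouse lay well above the highest vehicle mouse. The rise was 2.16-fold (log2 1.11, SE 0.128, DESeq2 adjusted p 1.8e-16). Exons of *Klf3* overlap those of the opposite-strand gene *Gm20033*, which was at 1.78 counts or fewer on average in every group.

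*Klf12* (ENSMUSG00000072294, chromosome 14, 99870632 to 100284679), the other CtBP-dependent repressor, went from 427, 391 and 394 (404 ± 20) to 556, 517 and 440.3 (505 ± 59). All 3 water-Dex mice lay above the water-PBS mice, yet the difference did not pass the test (log2 0.32, 95% interval 0.05 to 0.58, DESeq2 adjusted p 0.0749). It passed the adjusted p without water-Dex mouse 3 (0.41, DESeq2 adjusted p 0.0354) or zinc-PBS mouse 3 (0.0303). Levels of *Klf12* and of *Klf13* carry the limit that each overlaps genes on the opposite strand, though not in exons, and the strand setting of the counting was not stated.

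Among the activators, *Klf2* (ENSMUSG00000055148, chromosome 8, 72319033 to 72321656), which keeps endothelium and T cells quiescent, had 108, 129 and 93.3 normalized counts in water-PBS mice (110.2 ± 18). It had 189.9, 237 and 241 in water-Dex mice (223 ± 28.6). The groups were apart, and the 2.02-fold rise passed the test (log2 1.01, SE 0.218, DESeq2 adjusted p 4.7e-05).

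*Klf4* (ENSMUSG00000003032, chromosome 4, 55527143 to 55532466), known from pluripotency and from epithelial and endothelial differentiation, was the least abundant member, at 18.9, 28.2 and 15.4 normalized counts in water-PBS mice (20.8 ± 6.63). With Dex it was at 48.7, 43.6 and 50.5 (47.6 ± 3.57). Every Dex mouse exceeded every vehicle mouse. These levels rest on 14 to 31 reads per vehicle library and 41 to 51 per Dex library, and the interval was accordingly wide (log2 1.18, 95% interval 0.56 to 1.79, DESeq2 adjusted p 0.0016).

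*Klf6* (ENSMUSG00000000078, chromosome 13, 5861482 to 5870394), an injury-response gene of several liver cell types, stood at 183, 171 and 199 in water-PBS (184 ± 13.9) and at 157, 121 and 158 in water-Dex (146 ± 21.1). The Dex mice were all lower, but the difference did not pass (log2 -0.34, 95% interval -0.72 to 0.05, DESeq2 adjusted p 0.243).

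The Sin3A-recruiting members moved in different directions. *Klf10* (ENSMUSG00000037465, chromosome 15, 38291463 to 38300706), induced early by TGF-β and under circadian control in liver, had 360.2, 491 and 471 normalized counts in water-PBS mice (441 ± 70.3). In water-Dex mice 89.3, 156 and 158 remained (135 ± 39.3). No Dex mouse came near the lowest vehicle mouse, and the level was 0.306 of the vehicle level (log2 -1.71, SE 0.394, DESeq2 adjusted p 0.000164). It was the only member called lower.

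*Klf13* (ENSMUSG00000052040, chromosome 7, 63886351 to 63938915), first studied in T cells, had 399, 549.7 and 487 normalized counts in water-PBS mice (478 ± 75.6). The water-Dex mice had 1003, 918 and 1030.0 (984 ± 58.5). There was no overlap, and *Klf13* rose 2.05-fold (log2 1.04, SE 0.154, DESeq2 adjusted p 3.7e-10).

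*Klf9* (ENSMUSG00000033863, chromosome 19, 23141226 to 23168134), a repressor induced by steroid and thyroid hormones, had 1135, 1445 and 933 in water-PBS (1171 ± 258) and 1705, 1893 and 1565 in water-Dex (1721 ± 165). All Dex mice were higher. The 1.47-fold difference passed the adjusted p but lay within the fold change limit (log2 0.55, SE 0.168, DESeq2 adjusted p 0.00683), and it no longer passed without water-PBS mouse 3 (DESeq2 adjusted p 0.0644) or water-Dex mouse 2 (0.0655).

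*Klf11* (ENSMUSG00000020653, chromosome 12, 24651274 to 24662789), the closest relative of *Klf10*, varied most between mice in these groups, with 251, 135 and 74.7 in water-PBS (153 ± 89.6) and 90.4, 179.7 and 97 in water-Dex (122 ± 49.8). The groups overlapped, and the interval of the difference ran from -1.21 to 0.55 (log2 -0.33, DESeq2 adjusted p 0.686). Unlike *Klf10*, it thus gave no call in either direction, and the sign of its difference depended on water-PBS mouse 1, without which it was 0.22.

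*Klf15* (ENSMUSG00000030087, chromosome 6, 90462576 to 90475238) varied least between mice in these groups. It encodes a factor that rises in fasted liver. The water-PBS mice had 1292, 1207 and 1313 normalized counts (1271 ± 56.4) and the water-Dex mice 2757, 2969 and 2703 (2810.0 ± 141). The spread within a group was small beside the gap between them. *Klf15* rose 2.21-fold (log2 1.15, SE 0.085, DESeq2 adjusted p 4.1e-39).

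The same comparison was made in mice on zinc water, with other animals as controls. Here 4 members were called higher, against 5% of the 15657 genes tested, and 1 lower, against 4.68%. By adjusted p alone 5 passed, against 20.1% of genes, and 8 did not overlap between zinc-PBS and zinc-Dex mice, against 38.1%. The median of the 10 log2 fold changes was 0.60, beside -0.01 over all genes. The way the members were chosen limits these shares too.

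*Klf15* had 1156, 1083 and 1036 in zinc-PBS mice (1092 ± 60.8) and 3203, 2909 and 2737 in zinc-Dex mice (2949.9 ± 235), a 2.7-fold rise (log2 1.43, SE 0.085, DESeq2 adjusted p 3.2e-61). *Klf3* had 590.3, 468 and 483 (514 ± 66.7) against 1303, 1397 and 1291 (1331 ± 58.2), a 2.59-fold rise (log2 1.37, DESeq2 adjusted p 7.9e-25). In both genes all zinc-Dex mice lay far above the zinc-PBS mice.

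*Klf2* had 149.8, 89.2 and 86 in zinc-PBS (108 ± 36) and 182, 255 and 217 in zinc-Dex (218 ± 36.5), again 2.02-fold higher (log2 1.01, DESeq2 adjusted p 4.4e-05). *Klf4* had 30.7, 15.7 and 20.8 (22.4 ± 7.6) against 47.8, 46.7 and 59.6 (51.3 ± 7.17), a rise of log2 1.20 (DESeq2 adjusted p 0.000777). For both genes zinc-PBS mouse 1 was the highest of its group and still below every zinc-Dex mouse.

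*Klf10* varied widely among zinc-PBS mice, at 535, 202 and 318 (352 ± 169), and was at 88, 164 and 134 in zinc-Dex mice (129 ± 38.4). The highest Dex mouse lay below the lowest vehicle mouse, and *Klf10* fell (log2 -1.45, SE 0.395, DESeq2 adjusted p 0.0022).

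*Klf13* had 1000.1, 761 and 694 in zinc-PBS (818 ± 161) and 998, 819.8 and 1022 in zinc-Dex (947 ± 110.4). These groups overlapped, and the log2 difference of 0.21 (95% interval -0.09 to 0.51) did not pass (DESeq2 adjusted p 0.385). Without zinc-PBS mouse 1 it was 0.38 and passed the adjusted p (DESeq2 adjusted p 0.0452).

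The remaining members gave no call with Dex on zinc water. *Klf9* went from 1735, 1608 and 1143 (1495 ± 312) to 2054, 2073 and 1859 (1995 ± 118), higher in all mice but just short of the test (log2 0.42, DESeq2 adjusted p 0.0603). *Klf12*, at 447, 420.5 and 319 (395 ± 67.7) and then 521, 499 and 469 (496 ± 26.2), was likewise higher in all mice and short of it (log2 0.33, DESeq2 adjusted p 0.0688). Without zinc-PBS mouse 1 both passed the adjusted p, at 0.54 for *Klf9* (DESeq2 adjusted p 0.0185) and 0.43 for *Klf12* (0.0244), and *Klf9* also passed without water-PBS mouse 2 (0.028) or 3 (0.0262).

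*Klf6* had 287, 233 and 221 in zinc-PBS (247 ± 35.3) and 249.8, 146 and 171 in zinc-Dex (189 ± 54.4), which overlapped (log2 -0.39, DESeq2 adjusted p 0.154). Without zinc-Dex mouse 1, the highest of its group, it passed the adjusted p (-0.64, DESeq2 adjusted p 0.00423). *Klf11* had 132, 91.8 and 107 (110.1 ± 20.2) against 216, 211 and 139 (189 ± 42.9), with all zinc-Dex mice higher and a 95% interval of -0.10 to 1.65 (log2 0.78, DESeq2 adjusted p 0.243). It passed the adjusted p without water-PBS mouse 1 (DESeq2 adjusted p 0.029) or 3 (0.0313), neither of which belongs to the groups compared.

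**Figure D2:**
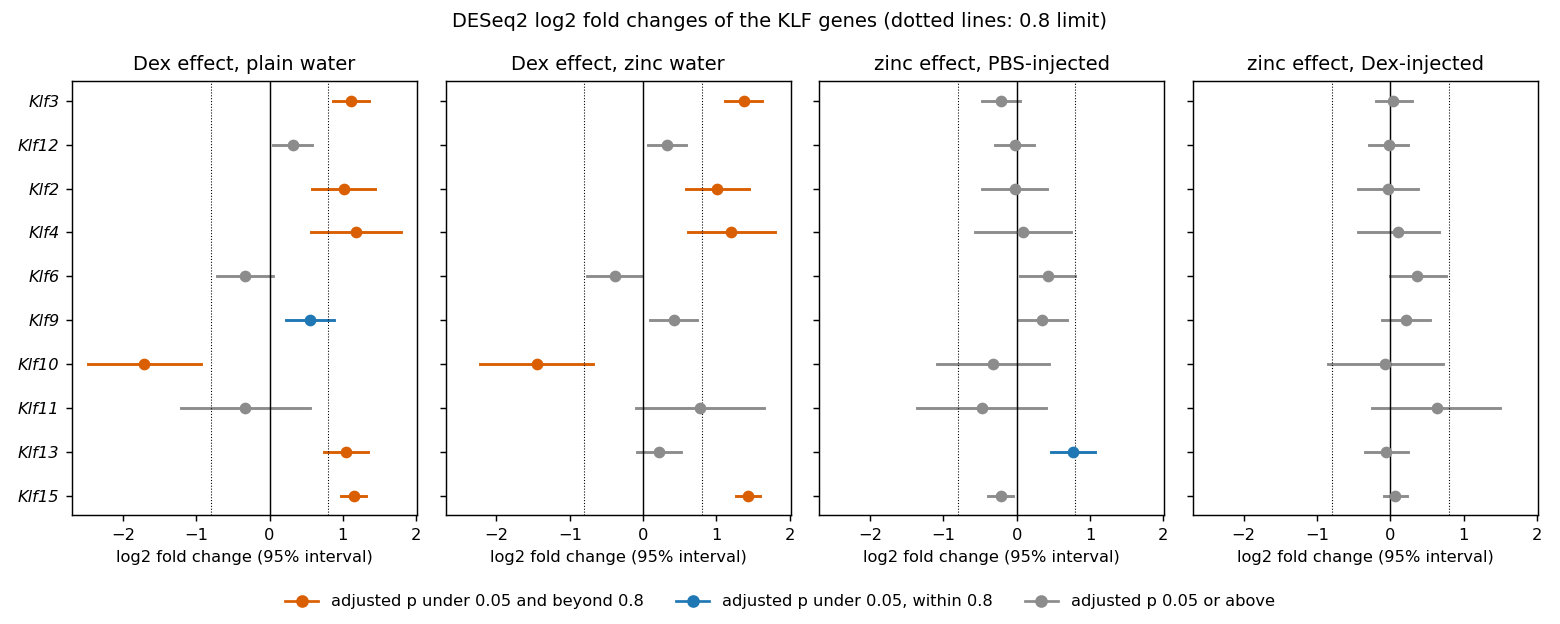
DESeq2 log2 fold changes (horizontal axes, points) with 95% intervals (lines) of the 10 genes (vertical axis) in 4 comparisons, coloured by whether the gene was called. Called genes occur only in the 2 Dex panels, where *Klf10* lies at -1.71 and -1.45, and *Klf13* at 0.77 is the single gene past the adjusted p in the zinc panels.

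The effect of zinc without Dex was compared in the PBS mice. No member was called by DESeq2, against 0.138% of the 12307 genes tested, or by edgeR, and 4 members had an unadjusted DESeq2 p under 0.05, as did 5.74% of genes. *Klf13* alone passed the adjusted p, a rule met by 0.341% of genes. The zinc-PBS mice that it rests on are also the controls of the Dex comparison on zinc water. From 399, 549.7 and 487 in water-PBS mice it went to 1000.1, 761 and 694 in zinc-PBS mice, so that all zinc mice lay above all water mice. The difference was 1.71-fold (log2 0.77, SE 0.154, 95% interval 0.47 to 1.07, DESeq2 adjusted p 0.000543), just within the fold change limit. It did not pass in edgeR (adjusted p 0.0902). Without zinc-PBS mouse 1, the highest of the group, it was 0.60 (DESeq2 adjusted p 0.0316), and it became a call without water-PBS mouse 2 (0.89), zinc-PBS mouse 2 (0.82) or zinc-PBS mouse 3 (0.88).

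*Klf6* and *Klf15* were the other members whose water-PBS and zinc-PBS mice did not overlap, 3 members in all against 11.9% of genes. *Klf6* was higher with zinc, at 221 or more against at most 199 counts (log2 0.42, 95% interval 0.05 to 0.80, DESeq2 adjusted p 0.743). *Klf15* was lower, at 1156 or less against at least 1207 counts (log2 -0.22, 95% interval -0.39 to -0.05, DESeq2 adjusted p 0.524). Neither passed. The intervals of *Klf2* (-0.47 to 0.41), *Klf3* (-0.47 to 0.04) and *Klf12* (-0.30 to 0.23) were narrower than those of *Klf4* (-0.57 to 0.74), *Klf10* (-1.09 to 0.44) and *Klf11* (-1.36 to 0.40), and in these 6 genes the groups overlapped. *Klf9* overlapped as well (log2 0.35, 95% interval 0.02 to 0.68, DESeq2 adjusted p 0.783). The median of the 10 members was -0.03.

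In Dex-injected mice zinc gave 0 calls among the members, against 0.469% of the 12786 genes tested, and 0 members passed the adjusted p, against 1.35%. At an unadjusted p under 0.05 the DESeq2 count of members was also 0, against 10.2% of genes, and edgeR called 0. No member separated the water-Dex from the zinc-Dex mice, although 20% of genes did. *Klf13* differed by -0.06 on the log2 scale (95% interval -0.35 to 0.24) and *Klf15* by 0.07 (-0.09 to 0.23). The widest intervals belonged to *Klf10* (-0.85 to 0.72) and *Klf11* (log2 0.63, SE 0.447). *Klf6*, at 0.37 (-0.01 to 0.76), did not pass (DESeq2 adjusted p 0.524).

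Whether the Dex effect differed between zinc and plain water was tested with the interaction term, which draws on all 4 groups. None of the 10 members passed the adjusted p, which 0.0229% of 26185 genes did, and 0.0191% were called. At an unadjusted p under 0.05 DESeq2 gave 2 members, *Klf13* and *Klf15*, against 1.99% of genes, and edgeR called 0. *Klf13* had the largest departure from 0 relative to its error (-0.83, SE 0.216, 95% interval -1.25 to -0.41). Its Dex effect was smaller on zinc water by 0.83 on the log2 scale. The unadjusted DESeq2 p was 0.000122 and the DESeq2 adjusted p 0.228. The adjusted p was 0.107 in DESeq2 with only genes of 10 counts in 3 or more libraries, and 0.577 in edgeR. Leaving out zinc-PBS mouse 3 made the *Klf13* term pass (-0.93, DESeq2 adjusted p 0.023). *Klf15* was at 0.29 (0.05 to 0.52, DESeq2 adjusted p 0.999), and *Klf11* at 1.11 with an interval of -0.14 to 2.35. For *Klf2* the term was 0.00 (-0.60 to 0.60). The call for *Klf13* on plain water and its absence on zinc water therefore do not show that the effects differ.

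**Figure D3:**
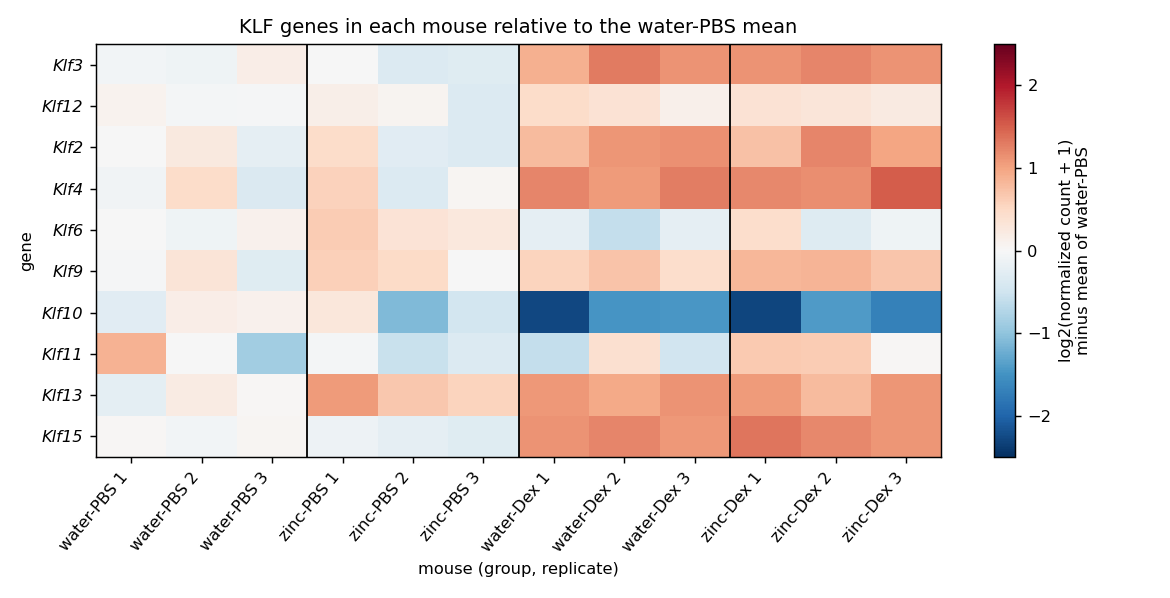
Difference of log2(normalized count + 1) from the mean of the water-PBS mice (colour) for the 10 genes (rows) in each of the 12 mice (columns, grouped by treatment). The 6 Dex columns are red for *Klf3*, *Klf2*, *Klf4*, *Klf13* and *Klf15* and blue for *Klf10*, whose values run from -2.30 to -1.41 there. *Klf9* (0.44 to 0.85) and *Klf12* (0.12 to 0.46) are also above 0 in the 6 Dex columns. *Klf13* is between 0.55 and 1.07 in the zinc-PBS mice.

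Single mice bore on some of these values. Zinc-PBS mouse 1 had the highest level of its group for 10 of 10 members, while it was the highest for 33.4% of the 9574 genes that averaged 50 or more normalized counts. In that mouse the 12 immediate early genes summed to 5256 normalized counts, against 1599 and 2019.7 in the other zinc-PBS mice. Water-PBS mouse 1, which had the highest *Klf11* of its group, was at 4923, against 1536 and 1108. In the Dex mice the sums lay between 1309.7 and 1777. *Egr1* and *Junb*, the most abundant genes of that list, fell with Dex on plain water (log2 -3.42 and -2.41), and *Jun* rose (2.02). *Klf10* and *Klf6* are early response genes themselves. Both were highest of their group in zinc-PBS mouse 1. In water-PBS mouse 1, however, *Klf10* was the lowest of its group (360.2 against 491 and 471). *Klf6* lay between the other mice there (183 against 171 and 199). The part of the immediate early difference between mice in their values was not tested. Without zinc-PBS mouse 1 the Dex effect on zinc water was -1.01 for *Klf10* and remained called, and 8 members passed the adjusted p in place of 5.

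Set in order by normalized reads per kilobase of merged exon, *Klf15* was at the top and *Klf9* next in every group, and the mice did not overlap between these neighbours. *Klf15* was at 455.0 ± 20.2 per kilobase in water-PBS and 391.0 ± 21.8 in zinc-PBS mice, and at 1007.0 ± 50.4 in water-Dex and 1057.0 ± 84.4 in zinc-Dex mice. It made up 40.6% and 34.2% of the sum of the 10 genes in the PBS groups and 52.7% and 51.8% in the Dex groups. *Klf9* followed at 243.0 ± 53.5, 311.0 ± 64.8, 357.0 ± 34.2 and 414.0 ± 24.6 in the same order of groups.

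*Klf10* took place 3 in water-PBS mice, at 105.0 ± 16.8 per kilobase, ahead of *Klf13* at 63.5. In zinc-PBS mice *Klf13* took that place at 109.0 ± 21.4 and overlapped *Klf10* at 84.1 ± 40.5. In the water-Dex and zinc-Dex mice *Klf10* took places 8 and 9, at 32.2 ± 9.39 and 30.8 ± 9.2. *Klf13*, *Klf2* and *Klf3* held places 3 to 5 in both Dex groups, between 115.0 and 131.0 per kilobase, and each overlapped the next in that run. *Klf12* took place 6 in all 4 groups, at 56.6 to 72.2. *Klf6* (33.2 to 56.2) and *Klf11* (25.4 to 43.5) came below it, and *Klf4* was last throughout, at 6.83 to 16.8. In water-PBS mice the neighbours within the run *Klf13*, *Klf2*, *Klf12* and *Klf3* overlapped. *Klf6* and *Klf11* overlapped each other too, whereas *Klf4* lay below every other member in all 4 groups. The sum of the 10 genes was 1122 ± 51.2 in water-PBS, 1144 ± 177.0 in zinc-PBS, 1912 ± 104.0 in water-Dex and 2039 ± 108.0 in zinc-Dex mice.

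**Figure D4:**
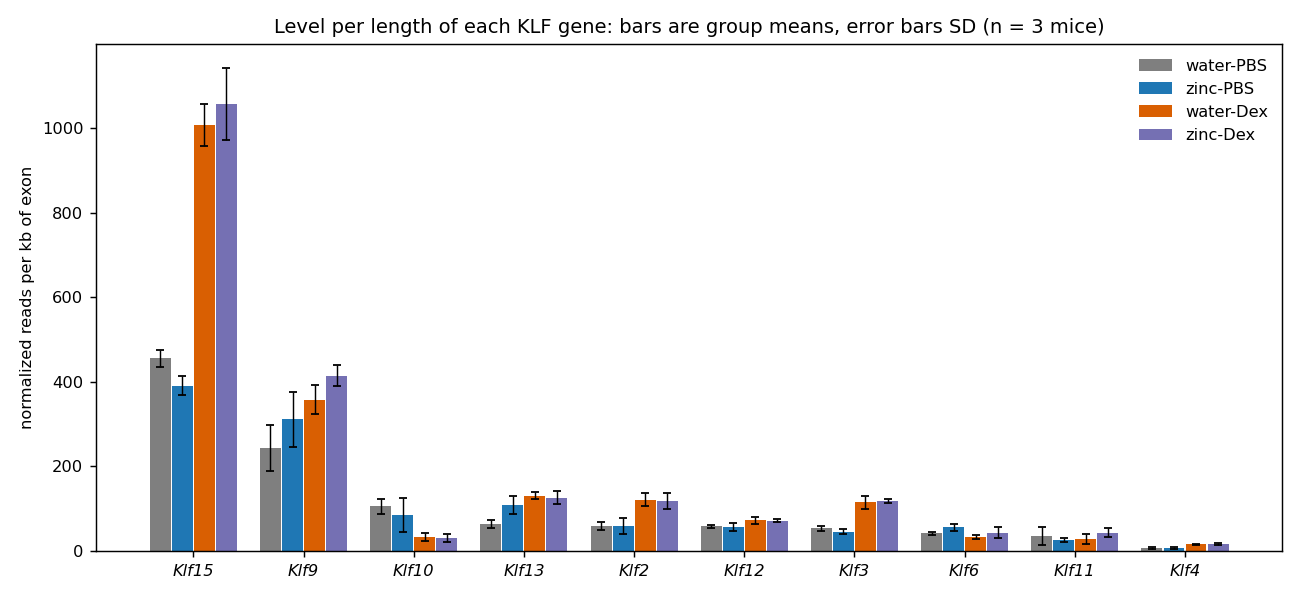
Normalized reads per kilobase of merged exon (vertical axis, from 0) of the 10 genes (horizontal axis) in the 4 groups, with bars for group means and error bars for SD (n = 3 mice). *Klf15* is the tallest in every group, from 391.0 in zinc-PBS to 1057.0 in zinc-Dex mice, and *Klf4* the lowest.

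Other genes were ranked by how closely they followed a member over the 12 libraries. The measure was the root mean square difference of log2(normalized count + 1) after each gene was centred on its mean. Only the 9574 genes that averaged 50 or more normalized counts over the 12 libraries were compared. *Klf4* itself averaged less, so genes as weakly expressed as *Klf4* could not be named. *Klf4* was followed most closely by *Daam2* (0.177), *Myo1e* (0.189) and *Klhl21* (0.193), against a spread of *Klf4* itself of 0.66. For *Klf10*, with a spread of 0.89, the nearest were *Arrdc4* (0.316), *Bhlhe40* (0.32) and *Atoh8* (0.337). *Klf13* and *Klf15* were added after their values were seen. *Ranbp9* (0.0916), *Kansl1* (0.0991) and *Clip1* (0.105) were nearest to *Klf15* (spread 0.653), and *Zfp1* (0.199), *Leng1* (0.203) and *Sowahc* (0.22) to *Klf13* (spread 0.45). *Klf15* thus had nearer neighbours than *Klf10*, whose level varied more within the groups.

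Of the 7 other *Klf* genes, 4 had an adjusted p with Dex on plain water. Of these, 0 were called higher, against 4.89% of genes tested, and 1 lower, against 4.79%. *Klf1*, the erythroid member, had 17.9, 22.8 and 48.3 normalized counts in water-PBS and 13.2, 12.8 and 6.93 in water-Dex mice (log2 -1.43, SE 0.442, DESeq2 adjusted p 0.00843). The 5 red blood cell markers summed to between 888 and 1561 in the former and between 1212 and 2135 in the latter. On zinc water none was called. *Klf7* and *Klf16* were the most abundant of these genes, and *Klf16*, a further Sin3A-type member, was lower with Dex on zinc water within the fold change limit (log2 -0.76, DESeq2 adjusted p 0.0477). *Klf5* and *Klf8* stayed under 10 counts in every mouse, *Klf17* had reads in 1 mouse and *Klf14* was at 0.

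Of the 9 Sp factors, which bind the same GC boxes, 5 were tested in each Dex comparison, and *Sp6*, *Sp7*, *Sp8* and *Sp9* were at 0. In each comparison 0 were called higher and 2 lower. The shares of genes tested that were called lower were 4.79% on plain water and 4.68% on zinc water. *Sp4* was at 79.1 ± 28.7 in water-PBS and 34.8 ± 1.28 in water-Dex mice (log2 -1.18, DESeq2 adjusted p 9.6e-05). *Sp5*, a Wnt target, was at 20.6 ± 7.5 and 2.03 ± 0.992 (log2 -3.34, DESeq2 adjusted p 0.000142). Both also fell with Dex on zinc water (log2 -1.04 and -3.55). The abundant *Sp1* was lower within the fold change limit (log2 -0.27, DESeq2 adjusted p 0.0223), *Sp3* did not pass (-0.12), and *Sp2*, named after its values were seen, was higher on plain water within that limit (log2 0.56, DESeq2 adjusted p 0.0418).

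Of 10 genes for cofactors of the family, 1 was called with Dex. It was called higher in each comparison, as were 4.89% of genes tested on plain water and 5% on zinc water. *Ep300*, which encodes the acetyltransferase p300, had 420.1, 384 and 438 normalized counts in water-PBS and 932, 884 and 983 in water-Dex mice. It rose in both comparisons (log2 1.17 and 1.30, DESeq2 adjusted p 1.2e-28 and 6.1e-36). The groups were far apart. *Kat2b*, the most abundant of the 10, did not pass in either (log2 0.14 and -0.01). *Sin3a*, named after its values were seen, was lower on zinc water within the fold change limit (log2 -0.38, DESeq2 adjusted p 0.0111).

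Genes linked to KLF15 went in both directions. Of 5, 2 were called higher and 1 lower in each Dex comparison. The shares of genes tested were 4.89% and 4.79% on plain water and 5% and 4.68% on zinc water. *Tat*, which begins tyrosine breakdown, rose from 9502 ± 2345 in water-PBS to 62751 ± 1264 in water-Dex mice (log2 2.72, DESeq2 adjusted p 3.5e-62), and *Pck1*, a rate-controlling gene of gluconeogenesis, rose by log2 1.62 (DESeq2 adjusted p 0.00185). Mitochondrial branched-chain aminotransferase *Bcat2* fell from 193 ± 30.2 to 92.3 ± 17.1 (log2 -1.06, DESeq2 adjusted p 8.3e-06). *Prodh* and *Gpt*, for proline and alanine breakdown, did not pass (log2 -0.19 and 0.07). On zinc water the values were 3.40 for *Tat*, 2.36 for *Pck1* and -1.04 for *Bcat2*, all called.

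Endothelial genes linked to KLF2 and KLF4 gave 3 calls higher of 3 with Dex on plain water, against 4.89% of genes tested. On zinc water they gave 2 of 3, against 5%. These counts do not weigh the direction of each link, and the 3 genes were chosen with earlier results of these data known. A rise of all 3 is therefore not a measure of KLF2 or KLF4 activity, which was not tested. *Thbd*, for the anticoagulant thrombomodulin, had 109, 118 and 72.5 normalized counts in water-PBS and 442, 613 and 579.8 in water-Dex mice (log2 2.44, DESeq2 adjusted p 6.2e-23). *Nos3*, the endothelial nitric oxide synthase gene, had 18.9, 27.3 and 22 against 67, 81.9 and 94 (log2 1.83, DESeq2 adjusted p 8.3e-09). *Edn1*, for endothelin-1, had few counts, at 8.4, 2.73 and 3.29 against 19.3, 9.57 and 16.8. It rose by log2 1.68 on plain water (DESeq2 adjusted p 0.02) and was at 1.08 on zinc water (DESeq2 adjusted p 0.122).

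The 8 sinusoidal endothelial markers summed to between 5185 and 5795 normalized counts in the PBS mice and between 5816 and 6416 in the Dex mice. None was at 0. With Dex on plain water 1 was called higher and 1 lower, against 4.89% and 4.79% of genes tested. These were *Lyve1*, a hyaluronan receptor (log2 2.53), and *Kdr*, a VEGF receptor (-1.14). *Lyve1* went from 160.0 ± 23.4 to 927 ± 29 on plain water and from 148 ± 32.5 to 1043 ± 64.1 on zinc water. *Kdr* went from 892 ± 80.2 to 405 ± 37.4 and from 927 ± 64 to 388 ± 46.2. The higher sums in the Dex mice include the rise of *Lyve1*, so they do not show a rise of the markers in general. *Ptprb*, the most abundant of the list, did not pass (0.16), nor did *Stab2* (0.06). *Cdh5*, named after its values were seen, was higher within the fold change limit on plain water (log2 0.27, DESeq2 adjusted p 0.0295). On zinc water it was too (log2 0.29, DESeq2 adjusted p 0.0233). *Klf2* and *Klf4* rose by log2 1.01 and 1.18 in the same comparison. The part of endothelial cell content in these rises was not tested.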

How the data were processed

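Total liver RNA was sequenced from 12 mice, and the deposited table holds raw read counts per Ensembl gene, which the authors made by mapping reads to mm10 with HISAT2 2.0.4 and counting with featureCounts. The strand setting was not given in the sources used here. Gene symbols, coordinates and exon lengths came from GENCODE M21 (GRCm38) for 54723 of the 54838 identifiers. Each column was assigned to a group by its label and used.

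The counts were fitted with DESeq2 1.42.0 (R 4.3.3), as in the study's methods, in 1 fit of all genes and 12 libraries with 1 coefficient per group. Wald tests used unshrunken fold changes and default independent filtering. The limits for a call were an adjusted p of 0.05 and a log2 fold change of 0.8 in size. Total counts were 9091152 to 12303527, and replicates differed by 6.2 to 20.7 times counting noise (chi-square per degree of freedom), so that none was a copy of another.

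The 10 members and the gene lists were chosen with earlier results of these data known. All members were named. Other list genes were named where called or among the 2 most abundant of their list. *Prodh*, *Gpt*, *Zbtb16*, *Sin3a*, *Sp2*, *Cdh5* and the weakly expressed *Klf* and *Sp* genes were named after their values were seen, to complete a list or a count. The 3 most similar genes were named for the members with the largest rise (*Klf4*) and fall (*Klf10*) with Dex on plain water. On simulated counts of 13255 genes, 200 were changed by log2 1.5 in the comparison of Dex with PBS on plain water. DESeq2 and edgeR each recovered 198 of these with 2 false calls. The members called higher with Dex rose by less, log2 1.01 to 1.43, and recovery at those sizes was not tested.

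Alternatives were edgeR 4.0.16 (quasi-likelihood test), TMM factors, a filter that asked for 10 counts in 3 or more libraries, a term for replicate number, and leaving out each library in turn. Protein sequences were not analysed here.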

Additional observations from a re-analysis of the deposited data

How the results depend on the processing

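All 11 calls with Dex, 6 on plain water and 5 on zinc water, held under each of the 16 alternatives. Of 800 values for 50 member results, 761 kept direction and side of the threshold, 0 lost a call, 4 gained one (all *Klf13*) and 35 changed sign in 15 results, none of them called. The count of members past the adjusted p with Dex on zinc water (5) was 5 to 8 when single mice were left out, the 8 being without zinc-PBS mouse 1. Under zinc in PBS mice, the called count (0) was 0 to 1 without single mice, and the count past the adjusted p (1) was 0 in edgeR. Both interaction counts (0) were 0 to 1, the 1 being without zinc-PBS mouse 3. Leave-one-out ranges of log2 values that changed sign were -0.71 to 0.22 for *Klf11* with Dex on plain water. Ranges were -0.34 to 0.11 for *Klf2*, -0.21 to 0.38 for *Klf4*, -0.81 to 0.07 for *Klf11* and -0.13 to 0.10 for *Klf12* with zinc in PBS mice. Ranges were -0.16 to 0.08 for *Klf2*, -0.06 to 0.14 for *Klf3*, -0.01 to 0.18 for *Klf4*, -0.29 to 0.15 for *Klf10*, -0.11 to 0.05 for *Klf12* and -0.11 to 0.04 for *Klf13* with zinc in Dex mice. Ranges were -0.27 to 0.32 for *Klf4*, -0.30 to 0.10 for *Klf6*, -0.02 to 0.70 for *Klf10* and -0.12 to 0.11 for *Klf12* for the interaction. The causes were not tested. No pairing of mice by replicate number was seen. Same-numbered mice correlated at r -0.204 to 0.191 over 18 pairs in their deviations from group means. Mice with different numbers correlated at r -0.245 to 0.284. With 3 mice per group a weak pairing cannot be told from none. A fit with a replicate block gave 6 and 5 calls with Dex, 0 with zinc and 0 for the interaction. It moved the adjusted p count with Dex on zinc water from 5 to 7, as *Klf9* (DESeq2 adjusted p 0.00476) and *Klf12* (0.0412) passed. Depth limits *Klf4*, at 14 to 62 reads per library.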
